A study of Mus musculus with 13 samples.

Results

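The genes described here are the Hes and Hey transcriptional repressors Hes1, Hes5, Hes6, Hey1, Hey2 and Heyl, with Rbpj and Nrarp, which act beside them in Notch signalling. All probe sets annotated to 1 of these 8 symbols were taken, each on its own, which gave 15 of the 45037 non-control probe sets of the table. Of these, 14 lay above the filter on low values and were tested among 27022 probe sets, and 1 Heyl probe set (1419303_at) lay below it. Whole brains were taken from mouse embryos on embryonic day 18.5, from 6 wild-type embryos and 7 embryos labelled Meg3 knock-out, and 1 embryo per Affymetrix array. Meg3, an imprinted gene read from the maternal allele, yields a long RNA with no known protein product. The labels do not give the strain, the deleted part of Meg3 or the parent that transmitted the allele. The embryos came from 5 litters, read from the leading number of each embryo label, and 4 of these litters (219, 238, 250 and 262) held both genotypes.

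When a ligand on a neighbouring cell binds a Notch receptor, the intracellular part of the receptor is cut free and enters the nucleus. There it joins the DNA-binding protein Rbpj and turns on genes that include Hes1, Hes5, the Hey genes and Nrarp. Hes and Hey proteins are of the basic helix-loop-helix type. Among them, Hes1 and Hes5 recruit Groucho corepressors and hold proneural genes down, which keeps radial glia from becoming neurons too early. In blood vessels the Hey genes act downstream of Notch in arterial endothelium and mural cells. The title of the series places its question in the expression of angiogenic genes, and Notch signalling is one of the pathways that shape vessels.

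Promoter windows from RefSeq (GRCm38.p6), which run from 250 bases before to 50 bases after an annotated start, were matched for 5 of the 8 genes, with 7 windows in all. They are shown for Hes5, Hey2 and Nrarp, textbook Notch targets that 3 kinds of member represent: a Hes repressor, a Hey repressor and the feedback inhibitor. The Hes5 window lies at chr4:154960673-154960972 on the plus strand, the Hey2 window at chr10:30842734-30843033 on the minus strand and the Nrarp window at chr2:25180508-25180807 on the plus strand. Capitals mark the Rbpj core TGGGAA, read on both strands, so that TTCCCA is the same core on the other strand.
Hes5: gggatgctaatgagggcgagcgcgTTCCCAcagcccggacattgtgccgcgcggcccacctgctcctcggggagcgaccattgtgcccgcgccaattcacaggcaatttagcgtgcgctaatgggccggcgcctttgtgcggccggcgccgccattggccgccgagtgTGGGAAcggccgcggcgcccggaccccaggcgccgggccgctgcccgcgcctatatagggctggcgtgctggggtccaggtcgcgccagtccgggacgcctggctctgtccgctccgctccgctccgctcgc
Hey2: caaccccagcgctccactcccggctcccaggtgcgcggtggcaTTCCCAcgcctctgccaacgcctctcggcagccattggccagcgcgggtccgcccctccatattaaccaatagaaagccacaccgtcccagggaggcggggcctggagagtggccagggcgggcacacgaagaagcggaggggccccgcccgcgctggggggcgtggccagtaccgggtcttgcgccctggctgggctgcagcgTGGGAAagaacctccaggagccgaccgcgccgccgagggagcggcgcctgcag
Nrarp: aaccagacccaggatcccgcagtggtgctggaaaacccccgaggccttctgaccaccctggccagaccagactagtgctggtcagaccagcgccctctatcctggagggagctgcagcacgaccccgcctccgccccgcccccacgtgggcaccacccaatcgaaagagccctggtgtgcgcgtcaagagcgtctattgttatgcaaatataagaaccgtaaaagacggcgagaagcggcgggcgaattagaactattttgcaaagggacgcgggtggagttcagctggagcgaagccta

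The Hes5 window held cores that began at positions -226 and -82 from the start used for the window, and the Hey2 window held them at -207 and -3. The Hes5 window lies inside the RefSeq span of its gene, which begins at base 154960626. Both Rbpj windows lie inside the span of Rbpj, which begins at base 53555779. The Hes6 window at chr1:91413173-91413472 also lies inside the span of its gene, which runs from base 91411483 to base 91414038. The Rbpj core was found in 4 of the 7 member windows, those of Hes5 and Hey2 and both overlapping windows of Rbpj, against 25.6% of all 32851 windows of the same length. The N box CACNAG, a Hes binding motif, was found in 2 of 7 windows, the Hes6 window named above and that of Nrarp, against 42.5% of all windows. The E box CACGTG, which Hey proteins can bind, was found in 1 of 7, at position -108 of Nrarp, against 7.15% of all windows. The class C site CACGCG was found in 0 of 7, against 9.27%. No core overlapped another of these motifs. These matches describe the letters of the windows and were not compared with the array values.

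The genotype labels were borne out by Meg3. Its highest probe set (1439380_x_at) ranged from 264 to 589 in knock-out and from 3109 to 6251 in wild-type brains, which is -3.64 ± 0.21 SE in log2 (adjusted p from limma = 4.39e-07). In all, 17 probe sets passed the threshold of 0.05, 0 of them higher and 17 lower in knock-out brains. That is 0.0629% of the probe sets tested. The 3' to 5' signal ratio of the Actb control probe sets, a sign of RNA quality, was 2.92 in wild-type 2 and 1.81 in knock-out 1. It lay between 1.32 and 1.495 in the other arrays. The median log2 change of all probe sets tested was 0.08, with 72.5% of means higher in knock-out brains. This median was -0.01 under quantile normalization, 0.03 with the trimmed mean of each array set equal and -0.12 under median centring. Signals are linear probe set intensities as deposited, and log2 changes are of signal + 16, knock-out minus wild-type, which understates changes of weak probe sets.

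In the signals as deposited, Hes1 was the only member whose knock-out and wild-type embryos did not overlap, with a level 1.32-fold higher in knock-out brains on the signal + 16 scale. Groups did not overlap for 1 of 14 tested member probe sets and, with knock-out higher, for 0.0703% of all probe sets tested. No member passed the test over all probe sets. Among the 14 tested member probe sets 9 had a higher and 5 a lower mean in knock-out brains, and their median log2 change was 0.0033, beside 0.08 for all probe sets tested. The count past the threshold was 0 of 14 in limma, each with an adjusted p of 1.00. At an unadjusted limma p under 0.05 it was 1 of 14, which was Hes1, where 3.96% of all probe sets reached that p.

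**Figure D1:**
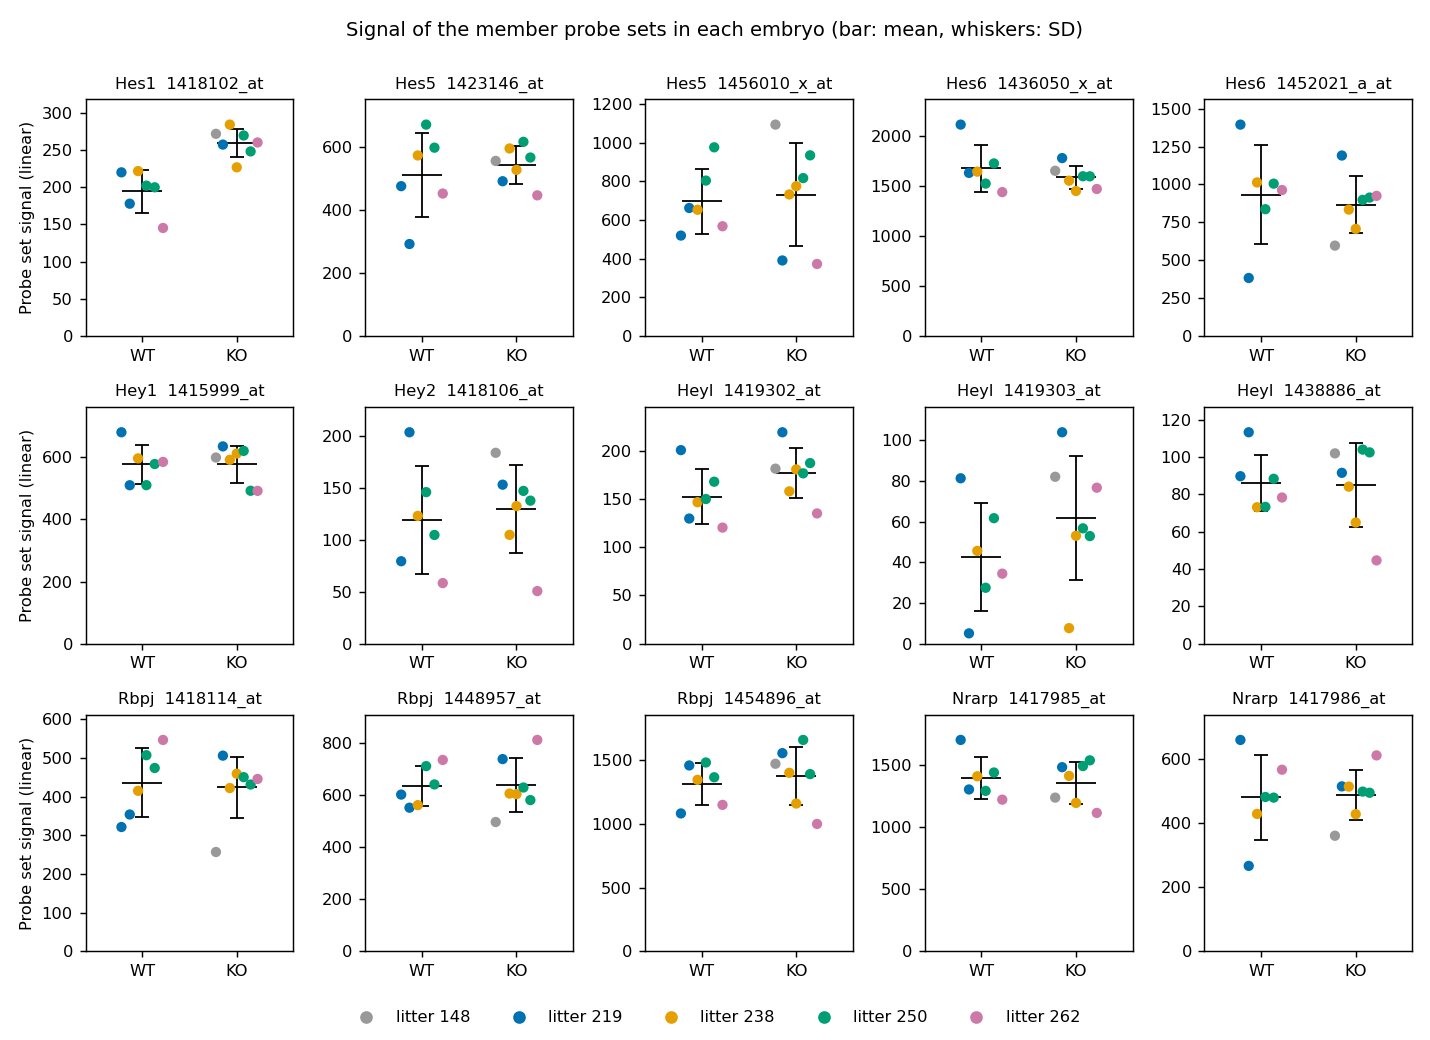
Linear signal of the 15 member probe sets in each wild-type (WT, n = 6) and knock-out (KO, n = 7) embryo, coloured by litter, with the mean as a bar and the SD as whiskers, each panel on its own scale from 0. The genotypes separate in the Hes1 panel, by a narrow gap in the signals as deposited, and overlap in the other 14.

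Hes1, an oscillating repressor that maintains neural progenitors, has 1 probe set (1418102_at). Its signal in knock-out embryos 1 to 7 was 272, 257, 284, 227, 269, 248 and 260. In wild-type embryos 1 to 6 it was 220, 178, 222, 202, 200 and 145. The lowest knock-out embryo, number 4 of litter 238, stood just above the highest wild-type embryo, number 3 of the same litter. The means were 259 ± 18.6 (SD, n = 7) and 194 ± 28.9 (SD, n = 6), a log2 change of 0.40 ± 0.11 SE (95% interval 0.17 to 0.63, limma adjusted p = 1.00). A two-sided exact permutation test over every assignment of the arrays to 7 and 6 gave p = 0.00117, the smallest it can give, in 1 of 15 such tests on the members. These assignments ignore litter, and any probe set whose genotypes do not overlap gives this p. Groups did not overlap, with knock-out higher, for 0.0703% of all probe sets tested, and the share for either direction is not given here.

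The separation of the Hes1 signals rested on the scaling of the deposited values. The lowest knock-out value exceeded the highest wild-type value by 0.03 on the log2 scale. With the trimmed mean of each array set equal it lay 0.03 below (-0.03), under quantile normalization at -0.18 and under median centring at -0.22, so the groups overlapped in all 3. The log2 change of Hes1 was then 0.35 ± 0.11 SE, 0.25 ± 0.13 SE and 0.20 ± 0.14 SE (limma adjusted p = 1.00, 1.00 and 0.770). Measured from the median of all probe sets, Hes1 stood at 0.32 as deposited, 0.32 after trimmed mean scaling, 0.26 after quantile normalization and 0.32 after median centring. Trimmed mean scaling and median centring move all probe sets of an array alike or nearly so. Their values therefore had to stay near 0.32, and only quantile normalization could give a clearly different one.

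In the 4 litters with both genotypes the mean Hes1 signal of knock-out embryos stayed between 255 and 260, whereas that of wild-type embryos ranged from 145 to 222. On the log2 scale knock-out exceeded wild-type by 0.35, 0.18, 0.34 and 0.78 in litters 219, 238, 250 and 262, so it was higher in 4 of 4. Signals without overlap between genotypes must give 4 of 4, so this count adds nothing to the separation as deposited. With litter as a block the log2 change was 0.38 ± 0.12 SE (limma adjusted p = 0.995). Litter 262, which held the wild-type embryo with the lowest signal and 1 knock-out embryo, gave the highest difference. Without that litter the log2 change was 0.32 ± 0.10 SE. In litter 238 the knock-out embryos read 284 and 227 and their wild-type littermate 222. Knock-out 1 was the only embryo of litter 148, which therefore gives no difference within the litter.

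**Figure D2:**
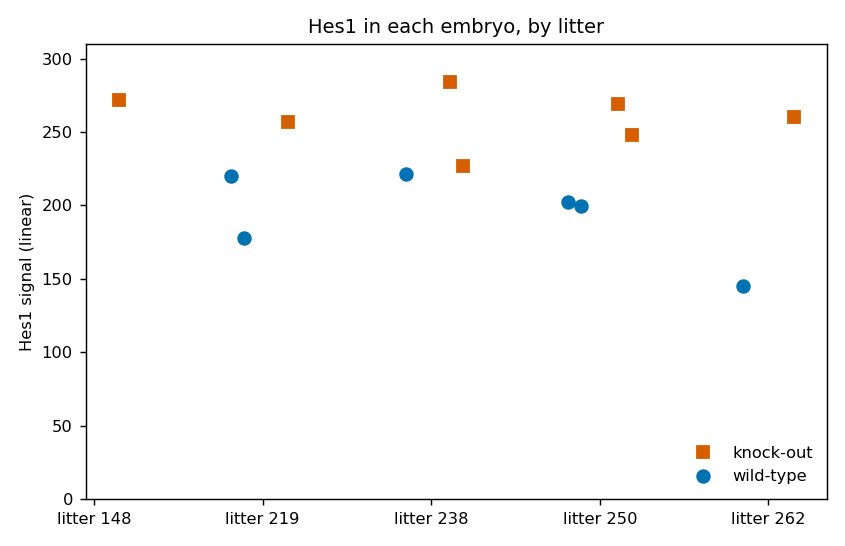
Linear Hes1 signal of each embryo by litter, wild-type as circles and knock-out as squares, on an axis from 0. Knock-out embryos lie between 227 and 284 and wild-type embryos between 145 and 222, with the closest approach in litter 238.

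Hes5, the other main Notch effector of radial glia, did not pass the test on either of its 2 probe sets, and the genotypes overlapped on both. The first (1423146_at) read 557, 492, 597, 529, 618, 567.8 and 447 in knock-out embryos 1 to 7 and 477, 293, 574, 673, 599 and 453 in wild-type embryos 1 to 6. The lowest value, 293, belonged to wild-type 2 and the highest, 673, to wild-type 4, so all knock-out embryos lay within the wild-type range. The log2 change was 0.12 (95% interval -0.23 to 0.48). The second (1456010_x_at) had a median of 775 and a range of 373 to 1093 in knock-out, and a median of 658 and a range of 519 to 976 in wild-type embryos. Its lowest values were those of knock-out 7 (373) and knock-out 2 (391), and its log2 change was 0.0042 (-0.53 to 0.54). Within litters the first probe set differed by 0.38, -0.03, -0.10 and -0.02 and the second by -0.57, 0.20, -0.02 and -0.59, in litters 219, 238, 250 and 262.

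Hes6, which is known to counteract Hes1 and to promote neuronal differentiation, had overlapping genotypes on both probe sets and did not pass the test. On the stronger (1436050_x_at) the mean was 1584 ± 112 (SD, n = 7) against 1678 ± 235 (SD, n = 6), with a log2 change of -0.07 (95% interval -0.30 to 0.15). Wild-type 1 was the highest embryo at 2112, and without it both groups lay between 1438 and 1778. On the other (1452021_a_at) the mean was 867 ± 188 (SD, n = 7) against 933 ± 328 (SD, n = 6), with a log2 change of -0.04 (-0.56 to 0.48) that was 0.053 with litter as a block. Both ends of that probe set were wild-type embryos of litter 219, wild-type 2 at 383 and wild-type 1 at 1395.

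No probe set of the Hey genes passed the test, and the genotypes overlapped on each. Hey1, known from arterial endothelium and also from neural progenitors, ranged from 492 to 635 in knock-out and from 510 to 680 in wild-type embryos. Its log2 change was 0.0019 (95% interval -0.23 to 0.23). Hey2, which directs arterial fate and is also active in neural progenitors, read 184, 153, 105, 133, 147, 138 and 50.7 in knock-out embryos 1 to 7. In wild-type embryos 1 to 6 it read 79.4, 204, 123, 146, 105 and 58.4. Its lowest values were the 2 embryos of litter 262, 1 of each genotype, and the log2 change was 0.13 (-0.45 to 0.71).

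Heyl, a Notch target known from vascular mural cells, had the next smallest limma p among the tested members after Hes1, on 1 of its 3 probe sets. That probe set (1419302_at) read 182, 219, 158, 181, 177, 187 and 135 in knock-out embryos 1 to 7 and 201, 130, 147, 150, 168 and 121 in wild-type embryos 1 to 6. The ranges overlapped, with the means at 177 ± 26.0 (SD, n = 7) and 153 ± 28.8 (SD, n = 6). The log2 change was 0.20 (95% interval -0.08 to 0.48, limma p = 0.148, adjusted p = 1.00), and the exact permutation p was 0.127. Within litters 219, 238, 250 and 262 it was 0.40, 0.19, 0.18 and 0.15, higher in knock-out in 4 of 4, and median centring took it to 0.0029. The second Heyl probe set (1438886_at) stood at 84.8 ± 22.5 (SD, n = 7) and 86.0 ± 15.2 (SD, n = 6), a log2 change of -0.04. The third (1419303_at), below the filter, ranged from 7.62 to 104 in knock-out and from 5.06 to 81.3 in wild-type embryos, and in the fit without a filter its log2 change was 0.42 (-0.39 to 1.24).

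Rbpj, the DNA-binding partner through which Notch acts on these genes, did not pass the test on any of its 3 probe sets, and each interval held both signs. The log2 changes were -0.04 (95% interval -0.39 to 0.31) on 1418114_at, 0.0024 (-0.26 to 0.27) on 1448957_at and 0.06 (-0.23 to 0.34) on 1454896_at. On the strongest, 1454896_at, knock-out embryos ranged from 1000.1 to 1660 around a median of 1402 and wild-type embryos from 1083 to 1483 around a median of 1357. Knock-out 1 had the lowest signal of all embryos on 1418114_at and 1448957_at, at 257 and 497, but not on 1454896_at, where it read 1473.

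Nrarp, a target that feeds back to inhibit Notch and acts in sprouting vessels, also gave intervals with both signs. On 1417985_at knock-out brains averaged 1353 ± 168 (SD, n = 7) and those of wild-type embryos 1395 ± 171 (SD, n = 6), with a log2 change of -0.04 (95% interval -0.29 to 0.20). On 1417986_at it was 490 ± 78.2 (SD, n = 7) and 481 ± 133 (SD, n = 6), a log2 change of 0.06 (-0.33 to 0.45). Within litters 219, 238, 250 and 262 the log2 change of 1417986_at was 0.28, 0.13, 0.05 and 0.11, so it too was higher in knock-out in all 4. How many of all probe sets were higher in all 4 litters was not counted, and 72.5% of means were higher in knock-out brains. The lowest embryos on 1417986_at were wild-type 2 at 267 and knock-out 1 at 361, the arrays with the high Actb ratio, whereas on 1417985_at these 2 read 1303 and 1238, within the range of the others.

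**Figure D3:**
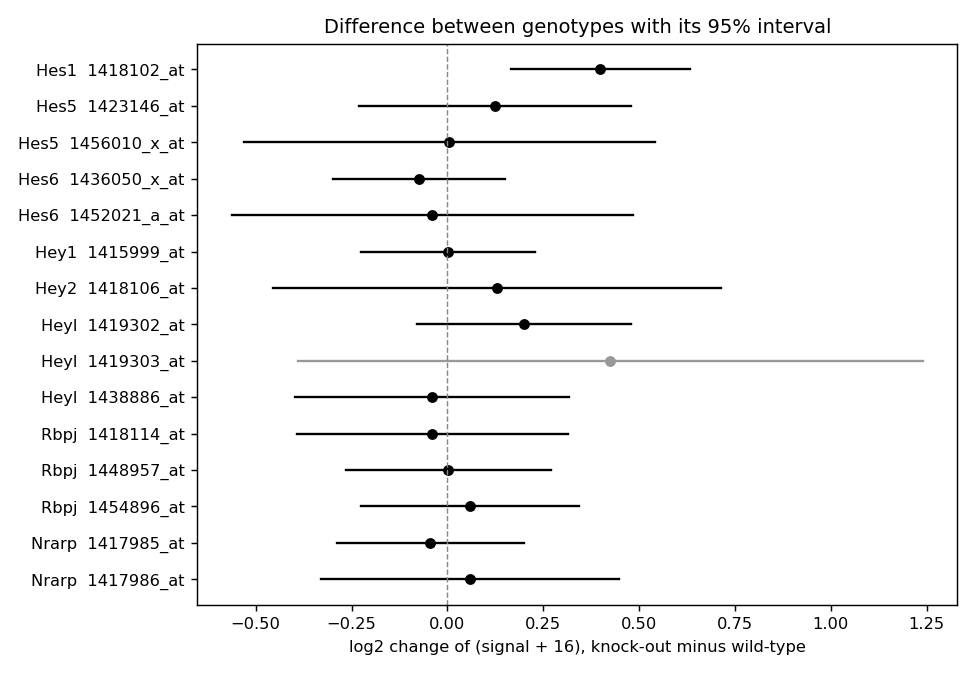
Log2 change of (signal + 16), knock-out minus wild-type, with its 95% interval from limma for each member probe set, in black for the 14 probe sets above the filter and in grey for the Heyl probe set below it, which comes from the fit without a filter. The Hes1 interval lies above 0 (0.17 to 0.63) and the other 14 cross 0.

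RNA quality moved with some of these probe sets. Across the 13 arrays the Nrarp probe set 1417986_at fell as the Actb 3' to 5' log2 ratio rose (Pearson r = -0.89, permutation p = 3.0e-05, adjusted over 15 probe sets 0.00045). Spearman's rho was -0.88 (permutation p = 0.00014, adjusted 0.0021). Without the 2 arrays farthest from the median ratio r was -0.72, and with litter means removed it was -0.94. The Hes6 probe set 1452021_a_at had r = -0.86 (permutation p = 0.0015, adjusted 0.011) and rho = -0.53 (permutation p = 0.064, adjusted 0.19), and r was -0.26 without those 2 arrays, so that relation rests on them. The other 13 probe sets had adjusted permutation p of 0.18 or more for r. For Hes1 r was -0.30 (permutation p = 0.30, adjusted 0.44) and rho -0.16 (permutation p = 0.60, adjusted 0.70), and r was -0.24 without those 2 arrays. With litter means removed r was -0.48 for Hes1 and -0.89 for Heyl 1419302_at. Over the 15 probe sets it then ranged from -0.94 to 0.65, the latter for Hey2, and these values were not tested. With the ratio as a covariate the log2 change of Hes1 was 0.39 ± 0.11 SE, and without wild-type 2 and knock-out 1 it was 0.37 ± 0.12 SE.

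Probe sets of the same gene were compared across embryos. Of 9 such pairs, 1 passed an adjusted permutation p of 0.05, the Rbpj probe sets 1418114_at and 1448957_at (r = 0.75, permutation p = 0.0028, adjusted 0.025, and rho = 0.80, permutation p = 0.0017, adjusted 0.016). Their r was 0.71 without the 2 arrays farthest on the first and 0.67 with litter means removed. The third Rbpj probe set, 1454896_at, had r = -0.02 and -0.34 with these (permutation p = 0.94 and 0.25, adjusted 0.94 and 0.40), and rho = 0.09 and -0.10 (permutation p = 0.78 and 0.75, adjusted 0.88 for each). Without the 2 arrays farthest on the first of each pair these r were -0.14 and 0.08. For the Hes5 pair r was 0.45 (permutation p = 0.12, adjusted 0.35) and rho 0.64 (permutation p = 0.021, adjusted 0.062), and r was 0.64 without the 2 arrays farthest on the first. With litter means removed that r was -0.67. The Hes6 pair had r = 0.41 (permutation p = 0.16, adjusted 0.35) and rho = 0.42 (permutation p = 0.16, adjusted 0.35). Its r was -0.14 without the 2 arrays farthest on the first probe set and 0.87 without wild-type 2 and knock-out 1. The Heyl probe sets 1419302_at and 1419303_at had r = 0.60 (permutation p = 0.030, adjusted 0.13) and rho = 0.68 (permutation p = 0.014, adjusted 0.061), and r was 0.56 without the 2 arrays farthest on the first. With litter means removed r was 0.80 for the Hes6 pair, 0.84 for that Heyl pair, 0.70 for the Nrarp pair, and 0.54 and 0.18 for 1454896_at with the other Rbpj probe sets. It was -0.30 and -0.49 for the Heyl probe set 1438886_at with 1419302_at and 1419303_at. No litter held the 6 embryos that a correlation within a litter would need.

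**Figure D4:**
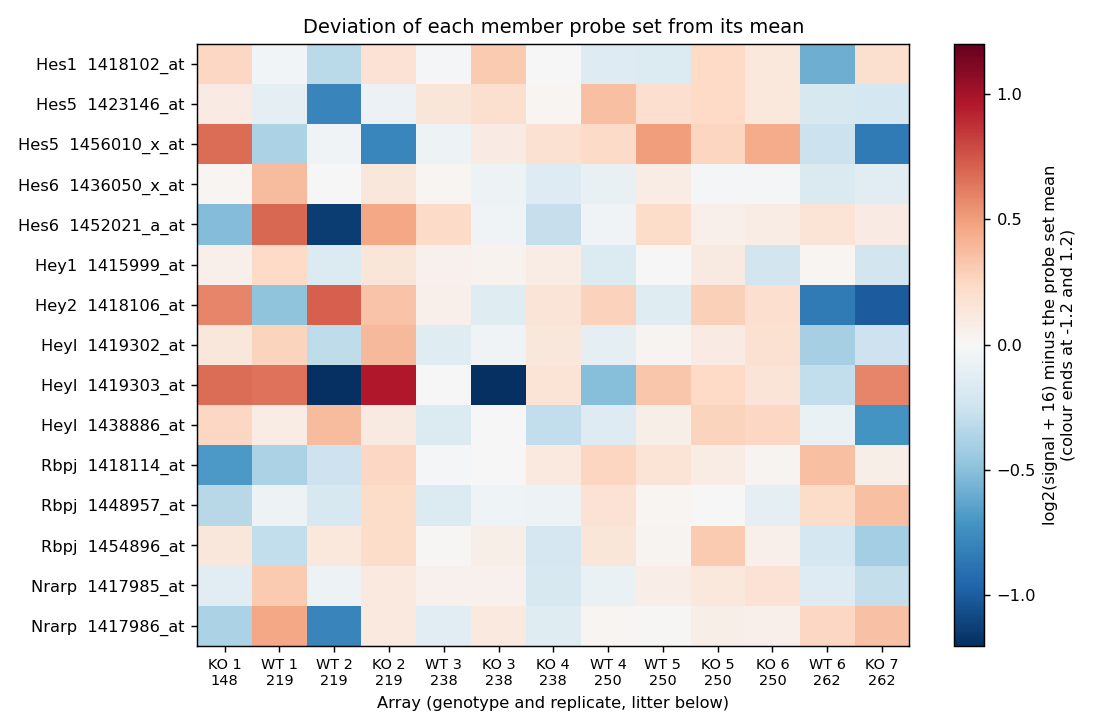
Deviation of log2(signal + 16) from the mean of each member probe set, with arrays in columns ordered by litter and genotype and colour ending at -1.2 and 1.2. Wild-type 2 is low on several probe sets, and Hey2 is low in both embryos of litter 262 and high in wild-type 2 (204) and knock-out 1 (184).

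Between genes, on the highest probe set of each, 2 of 28 pairs passed an adjusted permutation p of 0.05 for Pearson's r and 1 for Spearman's rho. Hey2 and Rbpj rose and fell together (r = 0.81, permutation p = 0.00099, adjusted 0.014, and rho = 0.84, permutation p = 0.00087, adjusted 0.024). Their r was 0.65 without the 2 arrays farthest on Hey2, 0.83 without wild-type 2 and knock-out 1, and 0.67 with litter means removed. This did not extend to the Rbpj probe set 1448957_at in the embryos at the ends of Hey2. There wild-type 6 and knock-out 7, lowest on Hey2, read 735 and 812, and wild-type 2 and knock-out 1, highest on Hey2, read 552 and 497. Correlations of Hey2 with the other Rbpj probe sets were not computed. Hes6 and Nrarp had r = 0.79 (permutation p = 0.0010, adjusted 0.014) and rho = 0.66 (permutation p = 0.016, adjusted 0.22), with r = 0.63 without the 2 arrays farthest on Hes6 and 0.80 with litter means removed. Hes1 and Heyl had r = 0.59 (permutation p = 0.035, adjusted 0.19) and rho = 0.42 (permutation p = 0.15, adjusted 0.51), and r was 0.11 without the 2 arrays farthest on Hes1. The points of each pair share the arrays, their scaling and their RNA quality.

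The genes with the pattern most like each member were found among 12920 genes by the largest Pearson r over the 13 arrays, and are given as a description. For Hes1 they were Uckl1 (r = 0.87), Pip5k1a (r = 0.84) and Ddx6 (r = 0.83). For Hes5 they were Nkd2 (r = 0.90), Ppargc1a (r = 0.89) and Selenoi (r = 0.89), and for Hes6 they were Nhp2 (r = 0.92), Shc1 (r = 0.90) and Kdelr2 (r = 0.90). For Hey1 they were Hoxc4 (r = 0.90), D11Wsu47e (r = 0.90) and Nfkb2 (r = 0.89), and for Hey2 they were Tstd2 (r = 0.97), Etl4 (r = 0.96) and Fat4 (r = 0.94). For Heyl they were Cope (r = 0.93), the Groucho corepressor Tle3 (r = 0.90) and Fkbp5 (r = 0.89). For Rbpj they were Usp7 (r = 0.94), Slc38a2 (r = 0.92) and Btbd7 (r = 0.92), and for Nrarp they were Dazap2 (r = 0.94), Ost4 (r = 0.92) and Tspan14 (r = 0.92). Without the 2 arrays farthest on Hes1 the r of Pip5k1a was 0.59, while Uckl1 stood at 0.85 and Ddx6 at 0.89.

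The rest of the Notch pathway held 0 genes past the threshold. Of 4 receptors 1 had a higher and 3 a lower mean (median log2 change -0.03), with Notch2 at -0.09 ± 0.21 SE and Notch3, the receptor of mural cells, at 0.08 ± 0.19 SE. Of 5 ligands 4 had a higher and 1 a lower mean (median 0.04), with Jag2 at 0.14 ± 0.20 SE and the endothelial ligand Dll4 at 0.14 ± 0.27 SE. Of 12 genes of receptor processing and glycosylation 10 had a higher and 2 a lower mean (median 0.10), with the gamma-secretase subunit Aph1b at 0.22 ± 0.16 SE and the protease Adam10 at 0.16 ± 0.18 SE. Of 9 Rbpj cofactors 5 had a higher and 4 a lower mean (median 0.07), with the acetyltransferase Kat2b at 0.11 ± 0.14 SE and the corepressor Ctbp2 at 0.10 ± 0.16 SE. Of 8 inhibitors and turnover factors 3 had a higher and 5 a lower mean (median -0.01), with the Deltex gene Dtx3 at -0.21 ± 0.18 SE and the ubiquitin ligase Itch at 0.20 ± 0.18 SE. These medians stand beside 0.08 for all probe sets tested, and every gene named in this paragraph had a limma adjusted p of 1.00.

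Partners and targets of the Hes proteins gave 0 calls as well. Of 6 Groucho corepressors 4 had a higher and 2 a lower mean (median log2 change 0.06), with Tle1 at 0.13 ± 0.09 SE and Tle6 at -0.24 ± 0.22 SE. Of the other Hes genes and their relatives 2 were tested, the related Bhlhe40 at 0.07 ± 0.14 SE and Hes7 at 0.06 ± 0.24 SE. Hes2, Hes3 and Bhlhe41 lay below the filter. Of 4 Id genes, which encode helix-loop-helix proteins without a DNA-binding region, 3 had a higher and 1 a lower mean (median 0.16). Id4 stood at 7103 ± 949 (SD, n = 7) against 5907 ± 524 (SD, n = 6). Its log2 change was 0.26 ± 0.12 SE (unadjusted 0.044 in limma, adjusted p = 1.00), and that of Id1 was 0.18 ± 0.17 SE. Of 9 proneural and neuronal commitment genes, the group that Hes1 is known to repress, 4 had a higher and 5 a lower mean (median -0.07). Eomes, of intermediate progenitors, stood at -0.33 ± 0.23 SE and Atoh1, of the rhombic lip, at -0.50 ± 0.43 SE, while Neurog2 stood at 0.01 ± 0.28 SE. Neurog2 was chosen after its values were seen. Neurog1 and Neurod4 lay below the filter.

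**Figure D5:**
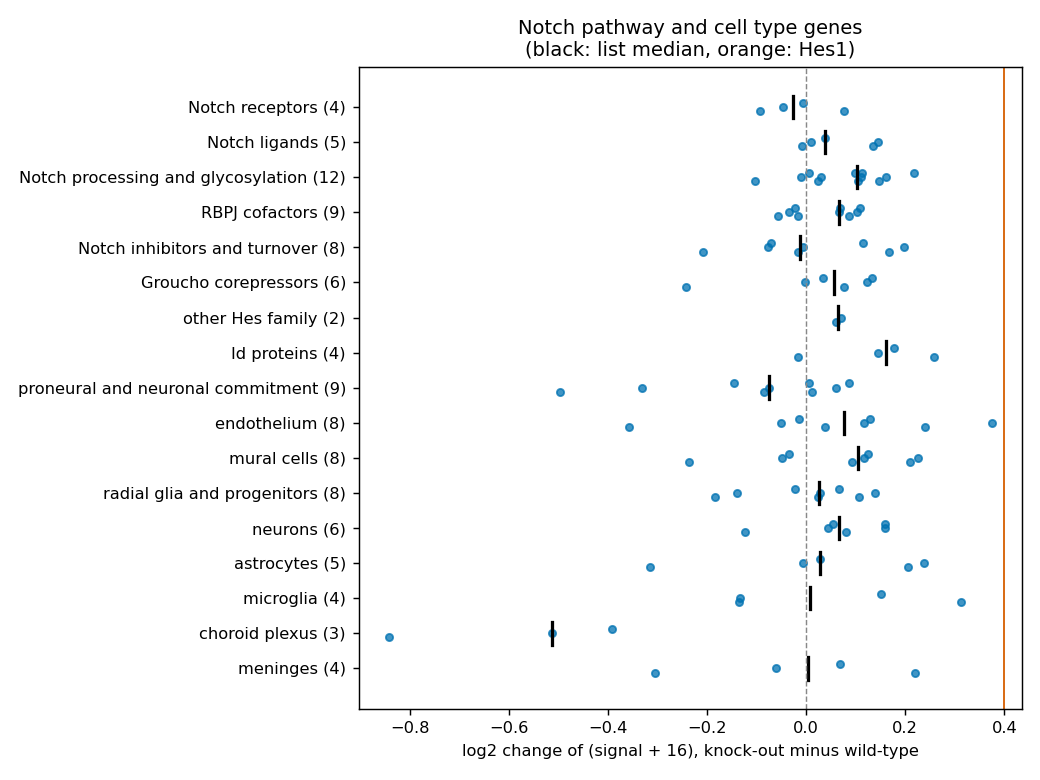
Log2 change of (signal + 16), knock-out minus wild-type, of each tested gene of the Notch pathway lists and the cell type marker lists, with the number tested in brackets, the list median as a black bar and Hes1 (0.40) as an orange line. No listed gene is as much higher in knock-out as Hes1, whereas Clic6 (-0.84), Folr1 (-0.51) and Atoh1 (-0.50) differ by more in the other direction. The 3 choroid plexus genes lie to the left.

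Markers of the cells that express these genes were also compared, since in whole tissue fewer cells of a type and less RNA per cell cannot be told apart. Neuron markers were abundant, with a summed signal over 6 genes of 62877 to 79868 in knock-out and 59598 to 74424 in wild-type brains. The summed signal of 8 radial glia and progenitor genes was 31971 to 37168 in knock-out and 29824 to 38434 in wild-type brains, and 5 of the 8 had a higher and 3 a lower mean (median log2 change 0.03). Pax6 stood at -0.18 ± 0.18 SE, Sox9 at -0.14 ± 0.17 SE and Nes at 0.14 ± 0.22 SE. For 8 endothelial genes it was 3299 to 5381 and 3418 to 5272, and 5 had a higher and 3 a lower mean (median 0.08). Pecam1 stood at 0.24 ± 0.14 SE, Vwf at 0.38 ± 0.24 SE and Cdh5 at -0.36 ± 0.24 SE. For 8 mural cell genes it was 4748 to 6981 and 4605 to 6237, and 5 had a higher and 3 a lower mean (median 0.11). Higd1b stood at 0.23 ± 0.10 SE, Abcc9 at 0.21 ± 0.16 SE and Tagln at -0.24 ± 0.39 SE. Nes, Cdh5 and Tagln were chosen after their values were seen. For 5 astrocyte genes it was 6637 to 13664 and 8237 to 13789, and 3 had a higher and 2 a lower mean (median 0.03), with Slc1a2 at 0.24 ± 0.18 SE and Gfap at -0.31 ± 0.28 SE. The groups overlapped in each of these sums.

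Among the remaining lists, 2 of 4 microglia genes had a higher mean, with Cx3cr1 at 0.31 ± 0.12 SE and Aif1 at 0.15 ± 0.17 SE. Csf1r at -0.14 ± 0.19 SE and P2ry12 at -0.13 ± 0.22 SE went the other way, and the median log2 change of this list was 0.0085. Csf1r and P2ry12 were chosen after their values were seen. All 3 tested choroid plexus genes had a lower mean, including Clic6 at -0.84 ± 0.44 SE and Ttr at -0.39 ± 0.27 SE. Of 4 meningeal genes 2 had a higher mean, with Dcn at 0.22 ± 0.27 SE and Col1a1 at -0.30 ± 0.38 SE. The mean was higher for 5 of 6 neuron genes (median log2 change 0.07), with Dcx at 0.16 ± 0.10 SE and Map2 at 0.16 ± 0.15 SE. Over all 17 lists 0 of 105 tested genes passed the threshold, and 3 of 105 had an unadjusted limma p under 0.05 (Id4, Higd1b and Cx3cr1). Higd1b had an unadjusted p of 0.042 and Cx3cr1 of 0.017, each with a limma adjusted p of 1.00. The part of cell composition in the Hes1 values was not tested.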

How the data were processed

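Total RNA of whole embryonic brains (5 µg per array) was turned into biotinylated cRNA by one-cycle labelling, per the labels' protocols. The deposited table holds linear probe set intensities. The summary software and scaling are not given in the sources used here. All deposited intensities under 50 were whole multiples, within 0.05, of a step that differed between arrays. Means trimmed by 2% at both ends came to 5000.03 to 5000.07 such steps and to signals of 454 to 540.

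Probe sets were named from the platform annotation, with 34945 of 45037 non-control probe sets carrying 1 symbol, and the 8 member genes were matched to RefSeq (GRCm38.p6) by Entrez identifier. Values were taken as log2(signal + 16). Probe sets whose mean lay above the 40th percentile (a signal of 56.9) were tested. Genotypes were compared with limma 3.58.1 (lmFit, then eBayes; R 4.3.3). P-values were two-sided and adjusted by Benjamini-Hochberg across the 27022 probe sets, with a threshold of 0.05 and no litter term. Exact permutation tests used every assignment of the arrays, and correlations 100000 resamples with Benjamini-Hochberg adjustment within each family. Values were handled in Python 3.11.15. The fit was tested on simulated data.

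Named were all member probe sets, the highest Meg3 probe set, the 2 genes of smallest p in each list, and the 3 most similar genes per member. The members and lists were chosen with earlier results of these data known. Alternatives were other added constants, filters, scalings, blocks, a variance trend, 1 probe set per gene, and leaving out arrays or litters. The number of arrays limits the precision. Sex was not used.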

Additional observations from a re-analysis of the deposited data

Results flagged for a closer look

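Among 30 groups of values (15 member probe sets in 2 genotypes), 2 held an embryo far from the rest of its group by Dixon's criterion at the 95% level, which chance meets in about 1 of 20 groups. On the Rbpj probe set 1418114_at knock-out 1 had a signal of 257, against 422 to 506 in the other 6 knock-out embryos. That array also had the second highest Actb 3' to 5' ratio (1.81), and its part in this value was not tested. On the Heyl probe set 1419303_at, which lies below the filter on low values, knock-out 3 had a signal of 7.62, against 52.9 to 104 in the other knock-out embryos.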

How the results depend on the processing

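Hes1 kept its direction in all 30 alternatives, with a log2 change of 0.20 to 0.45, and passed the threshold in 0 of them (lowest limma adjusted p 0.387, without knock-out 4). Since its groups did not overlap as deposited, leaving out arrays or litters, other added constants, filters and blocks could not turn that sign. Trimmed mean scaling, quantile normalization and median centring, in which the groups overlapped, could turn it and gave 0.35, 0.25 and 0.20. Leaving out arrays or litters gave 0.32 to 0.45, and the values within litters were 0.18 in litter 238 and 0.78 in litter 262. The count of probe sets past the threshold was 3 with 1 probe set per gene, where 12920 were tested, 25 with no filter and 17 as reported. With the replicate block, over the 6 numbers that both genotypes hold, it was 9, and Hes1 stood at 0.40. The replicate numbers do not mark litters: some numbers join littermates and others do not. Deviations of same-numbered arrays correlated between -0.43 and 0.20. At an unadjusted p under 0.05 there were 1015 higher and 55 lower probe sets as deposited, 676 and 153 with trimmed mean scaling, 289 and 441 after quantile normalization, and 212 and 983 after median centring.

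Most other member probe sets changed sign under at least 1 alternative, and 0 of them passed the threshold in any alternative. Under quantile normalization the log2 changes that turned were -0.070 for Hes5 1456010_x_at, -0.082 for Hey1, -0.057 for Hey2, -0.080 for Rbpj 1448957_at and -0.039 for Nrarp 1417986_at. Under median centring they were -0.073 and -0.19 for the Hes5 probe sets, -0.20 for Hey1, -0.067 for Hey2, -0.19 for Rbpj 1448957_at, -0.14 for Rbpj 1454896_at and -0.14 for Nrarp 1417986_at. With trimmed mean scaling they were -0.050 for Hes5 1456010_x_at, -0.053 for Hey1 and -0.052 for Rbpj 1448957_at. With litter as a block they were -0.20 for Hes5 1456010_x_at, 0.053 for Hes6 1452021_a_at, -0.0066 for Hey1, 0.049 for Rbpj 1418114_at and 0.000911 for Nrarp 1417985_at. With the replicate block they were 0.075 for Heyl 1438886_at, -0.057 for Rbpj 1448957_at and 4.01e-05 for Nrarp 1417985_at. With the Actb ratio as a covariate they were -0.021 for Hey1, 0.037 for Heyl 1438886_at, -0.056 for Rbpj 1448957_at and -0.11 for Nrarp 1417986_at. Without wild-type 2 and knock-out 1, an alternative chosen after seeing the data, they were -0.028 and -0.11 for the Hes5 probe sets, -0.041 for Hey1, 0.019 for Rbpj 1418114_at and -0.027 for Nrarp 1417986_at.

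Leaving out each array or litter in turn gave ranges of -0.049 to 0.25 and -0.11 to 0.15 for Hes5, -0.27 to 0.094 for Hes6 1452021_a_at, -0.031 to 0.050 for Hey1, -0.025 to 0.31 for Hey2 and -0.19 to 0.075 for Heyl 1438886_at. They were -0.25 to 0.072, -0.10 to 0.075 and -0.000869 to 0.13 for the Rbpj probe sets, and -0.12 to 0.014 and -0.095 to 0.16 for those of Nrarp. Hes6 1436050_x_at and Heyl 1419302_at kept their sign in all 30. Over 17 lists and 30 alternatives, 50 list medians moved by over 0.1. All 17 did so under median centring, which shifts all probe sets of an array alike. The cause of the turns in sign was not tested.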
